A study of Homo sapiens with 6 samples.

Results

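The 10 genes described here were grouped as EGR, NR4A and other activation-induced genes: the zinc finger transcription factor genes EGR1, EGR2, EGR3 and EGR4, the orphan nuclear receptor genes NR4A1, NR4A2 and NR4A3, and IER2, BTG2 and CD69. They were chosen by name, and all 10 were found among the 39012 gene symbols of the deposited table. RNA-seq was made from Jurkat cells, an established line from a human T cell acute lymphoblastic leukaemia, in 6 libraries: 3 from control cells that carried an empty vector (EV), and 3 from cells with stable overexpression of SCML4, a Polycomb protein related to Scm. Before harvest the cells of both groups received 100 ng/ml PMA with 1 µM ionomycin for 6 h. The sources used here do not give the promoter that drives SCML4, nor whether the lines are clones or pools. The cell type label names ouabain, but no ouabain treatment is described. All libraries were stimulated, so the values give levels under stimulation and the comparison between EV and SCML4 cells, not the induction of a gene. Separate cultures for the libraries of a group are not stated in the labels; the p-values therefore reflect the spread among these 6 libraries alone, and that spread may be technical.

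PMA activates protein kinase C and the Ras guanine exchange factors of lymphocytes, and ionomycin raises calcium, so that together they replace the signal of the T cell receptor. EGR and NR4A genes are immediate early genes: their promoters are held ready and are switched on within minutes, without new protein synthesis, by serum response factor with its ternary complex partners, by CREB and, for NR4A1, by MEF2 factors. Their transcripts are short-lived and usually decline within a few hours. In T cells EGR2 and EGR3 are known for their part in unresponsiveness and NR4A factors for negative selection and exhaustion, while CD69 is an early activation antigen that retains lymphocytes in tissue by binding the sphingosine phosphate receptor S1PR1.

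Libraries held 8953671 to 10336597 reads, recovered from the steps of the FPKM values. SCML4 reads numbered 7, 2 and 1 in EV replicates 1 to 3 against 570, 657 and 506 in SCML4 replicates 1 to 3, as the labels state. All 10 T cell markers listed, among them CD3E and LCK, averaged above 1 CPM, with a summed level of 2670 to 2890 CPM in EV and 2870 to 2980 in SCML4 (CPM, reads per 1000000 of the library). The 5 myeloid markers summed to at most 0.871 CPM with LYZ at 0, the 4 NK cell markers to at most 3.10 with NCR1 at 0, and the 3 epithelial and stromal markers to at most 3.79 with EPCAM at 0. The 5 B cell markers summed to 21.6 to 33.9 CPM, nearly all of it CD79A, with PAX5 at 0. EV replicate 1 stood apart: on the first principal component (26.5% of the variance) it lay at -38.6 against 0.35 to 11.6 for the others, and its deviation from the mean library followed GC content across genes with a Spearman coefficient of -0.52, against 0.05 to 0.30 in the others. Values without this library are given beside each of the 10 genes below, but not beside the other genes named.

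Promoter sequence from RefSeq was used for 7 of the 10 genes, in 10 windows that run from 250 bases before to 50 after an annotated start (GRCh38.p14). CD69, EGR3 and NR4A2 had no window in this set. Windows on the chromosome that carries EGR3 were left out, so its absence need not be a gap in RefSeq. The 4 windows below are shown because they hold letters bound by the factors named above. The CArG box, the site of serum response factor, is in capitals in the EGR1 window (chr5:138465229-138465528, + strand) and in the window of the third annotated EGR2 start (chr10:62816317-62816616, - strand). In the BTG2 window (chr1:203305269-203305568, + strand) the capitals mark GCGNGGGCG, a loose pattern for the EGR site in which N is any base. In the NR4A3 window (chr9:99821635-99821934, + strand) they mark TGACG on either strand, the core letters of the cyclic AMP response element bound by CREB.
EGR1: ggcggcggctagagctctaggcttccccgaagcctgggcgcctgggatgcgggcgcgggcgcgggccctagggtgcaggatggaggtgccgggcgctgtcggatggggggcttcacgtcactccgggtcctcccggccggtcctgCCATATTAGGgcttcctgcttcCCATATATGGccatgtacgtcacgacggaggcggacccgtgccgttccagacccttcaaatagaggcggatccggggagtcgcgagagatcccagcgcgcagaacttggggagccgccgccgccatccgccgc
EGR2: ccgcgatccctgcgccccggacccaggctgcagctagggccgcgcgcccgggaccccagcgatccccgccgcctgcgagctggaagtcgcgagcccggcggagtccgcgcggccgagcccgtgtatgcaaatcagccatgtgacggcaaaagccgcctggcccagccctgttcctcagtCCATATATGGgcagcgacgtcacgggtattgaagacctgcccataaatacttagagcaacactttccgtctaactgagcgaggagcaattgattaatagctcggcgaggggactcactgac
BTG2: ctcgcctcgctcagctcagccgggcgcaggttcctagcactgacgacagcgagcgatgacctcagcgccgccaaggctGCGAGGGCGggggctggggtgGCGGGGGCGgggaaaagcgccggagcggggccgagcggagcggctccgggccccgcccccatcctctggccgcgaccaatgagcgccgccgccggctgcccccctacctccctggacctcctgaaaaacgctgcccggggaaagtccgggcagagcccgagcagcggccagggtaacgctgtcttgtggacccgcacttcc
NR4A3: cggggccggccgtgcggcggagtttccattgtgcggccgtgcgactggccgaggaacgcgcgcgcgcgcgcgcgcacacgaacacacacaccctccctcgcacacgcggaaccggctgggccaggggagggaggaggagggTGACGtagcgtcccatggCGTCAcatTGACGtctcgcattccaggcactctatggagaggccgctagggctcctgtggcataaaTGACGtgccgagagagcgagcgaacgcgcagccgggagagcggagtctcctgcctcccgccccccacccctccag

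The EGR1 window held 2 CArG boxes, at -105 to -96 and -83 to -74 from the start, and the EGR2 window 1, at -71 to -62. Of all 35116 promoter windows 1.29% held a CArG box on either strand. The letters GCGNGGGCG stood in 9.43% of all windows. The BTG2 window held 2 copies, at -172 to -164 and -151 to -143, each overlapping the GC box letters GGGCGG, the EGR1 window held 1, at -198 to -190, and the window of the second EGR2 start held 1, at 9 to 17. TGACG occurred in 24.6% of windows. It stood 4 times in the window of NR4A3, 2 times each in those of EGR1, EGR4 and the third EGR2 start, and 1 time each in those of BTG2 and IER2. The full response element TGACGTCA (1.85% of windows) and the NR4A monomer site AAAGGTCA (1.22%) were in none of the 10 windows. A match is a description of letters and not a site shown to be used.

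The 10 transcripts fell into 5 that were well covered, with 57 or more reads in every library, and 5 with 13 or fewer. Levels between genes are compared per kilobase of the exonic length in GENCODE 29, as a mean over the 6 libraries, because the lengths behind the deposited FPKM are not those of the genes (62 bases for BTG2, whose exonic length is 2757). IER2 had the highest level, 11.6 CPM per kilobase (range over libraries 9.19 to 12.6), followed by BTG2 at 7.68 (6.63 to 9.16) and CD69 at 7.03 (5.98 to 9.82). The ranges of IER2 and BTG2 did not overlap, while that of CD69 overlapped both. EGR1 followed at 3.30 (2.04 to 5.30) and NR4A1 at 1.02 (0.756 to 1.29), each below the whole range of the gene before it. The exonic length is the union of all annotated exons of a gene, which can exceed the length of its transcript. It was 7295 bases for NR4A1 and 3138 for EGR1. Before division by length NR4A1 (5.51 to 9.38 CPM) and EGR1 (6.40 to 16.6 CPM) overlapped, so the gap between them rests on the length used. NR4A3, EGR3, EGR4, EGR2 and NR4A2 lay between 0.124 and 0.0478 CPM per kilobase with ranges that overlapped one another. Summed over the 10 genes, the level was 78.4, 93.1 and 86.3 CPM in EV replicates 1 to 3 and 104, 101 and 116 CPM in SCML4 replicates 1 to 3. IER2, BTG2 and CD69 hold most of these sums.

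**Figure D1:**
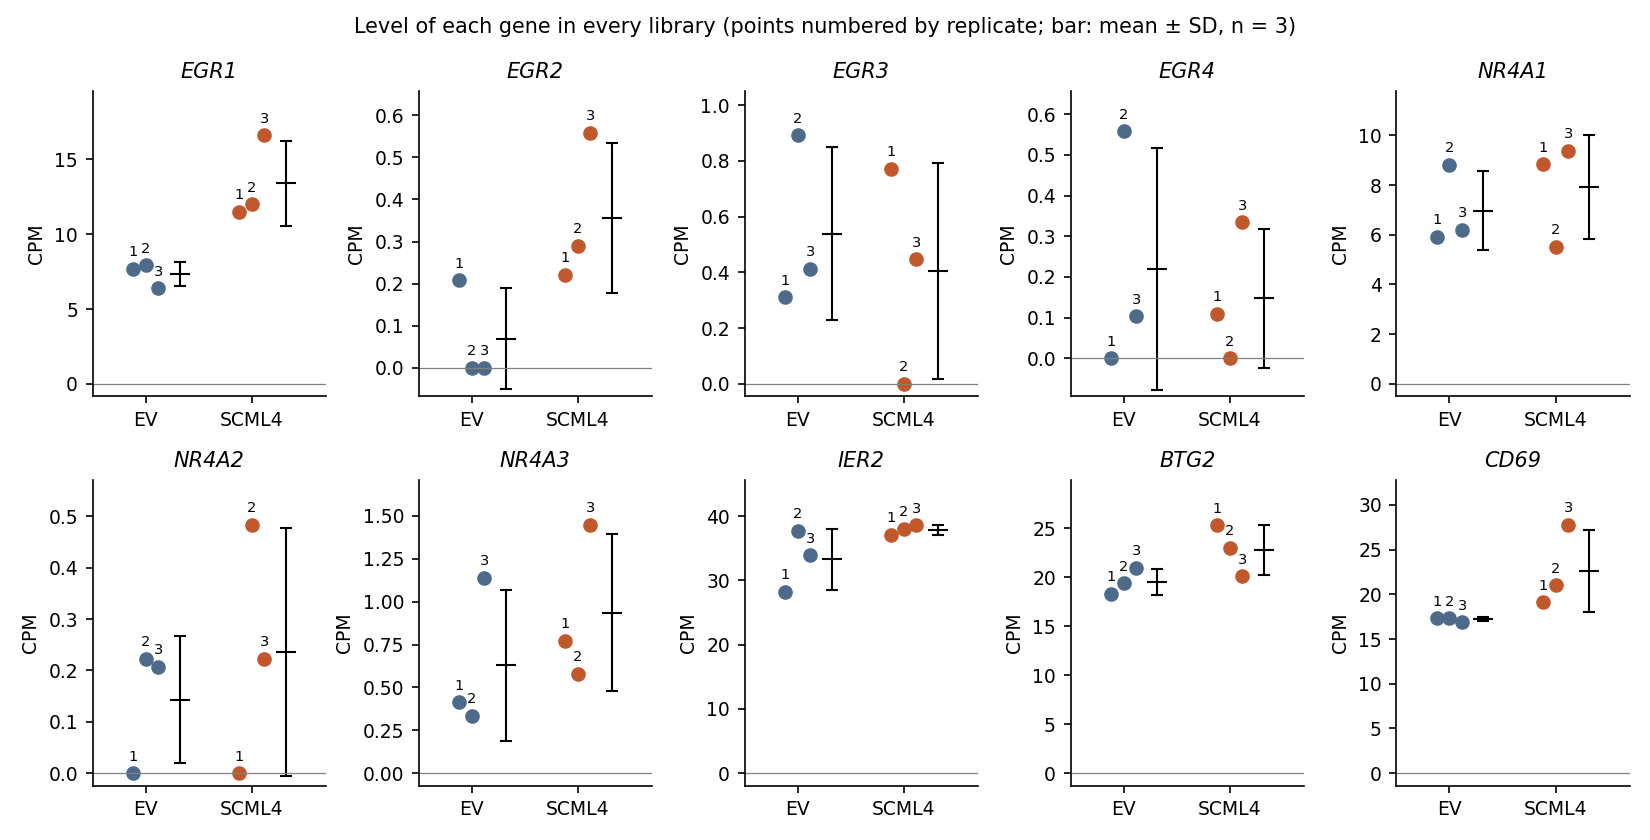
Level of each of the 10 genes in CPM (vertical axes, linear, a scale for each gene) in the 3 EV and 3 SCML4 libraries, numbered by replicate; horizontal ticks are group means and vertical bars the SD over 3 libraries, which in genes with few reads runs below 0. EGR1 lies at 6.40 to 7.92 CPM in EV and 11.5 to 16.6 in SCML4, and IER2 at 28.2 to 37.7 and 37.1 to 38.6.

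In the limma-trend comparison of SCML4 with EV, 8 of the 10 genes passed the filter on low FPKM, and 0 of the 8 were called at an adjusted p under 0.05. Over all 15357 genes tested the share called was 0.0%. The overexpressed gene SCML4, with a 174-fold ratio of mean CPM, was itself not called there: it had the lowest p of all genes, with a limma-trend difference of 1.88 on the log2(FPKM + 1) scale, but its p was 0.0619 after adjustment. Its EV FPKM values (0.00462 to 0.0325) lay far below the pseudocount of 1. On the recovered reads limma-voom gave it a log2 difference of 7.56. For EGR1 the limma-trend and limma-voom differences were 0.78 and 0.84, and for CD69 0.37 in both. The limma-trend SE was 0.13 for SCML4, 0.16 for EGR1 and 0.14 for CD69. With a similar SE the larger difference of SCML4 was not called, so differences the size of those of EGR1 and CD69 could hardly be called in this fit. Its 0 calls therefore do not show that such changes were absent. An unadjusted p under 0.05 was reached by 2 of the 8, EGR1 and CD69, against 5.09% of all genes. The same 2 of 8 had groups that did not overlap, SCML4 being higher in both, against 11.3% of all genes with groups apart in either direction and 6.02% with SCML4 higher. In limma-voom on the recovered reads 5 of the genes could be fitted and 0 were called, against 0.00706% of all genes, which is SCML4 alone (adjusted p = 1.46e-06), and 2 of 5 had an unadjusted p under 0.05, against 5.27% of all genes. Of the 8 differences 7 were positive, with a median of 0.26 on the log2(FPKM + 1) scale, where 51.7% of all genes were positive and their median was 0.01. Without EV replicate 1, 6 of the 8 were positive. The members were chosen with earlier results of these data known, so these counts are a description.

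**Figure D2:**
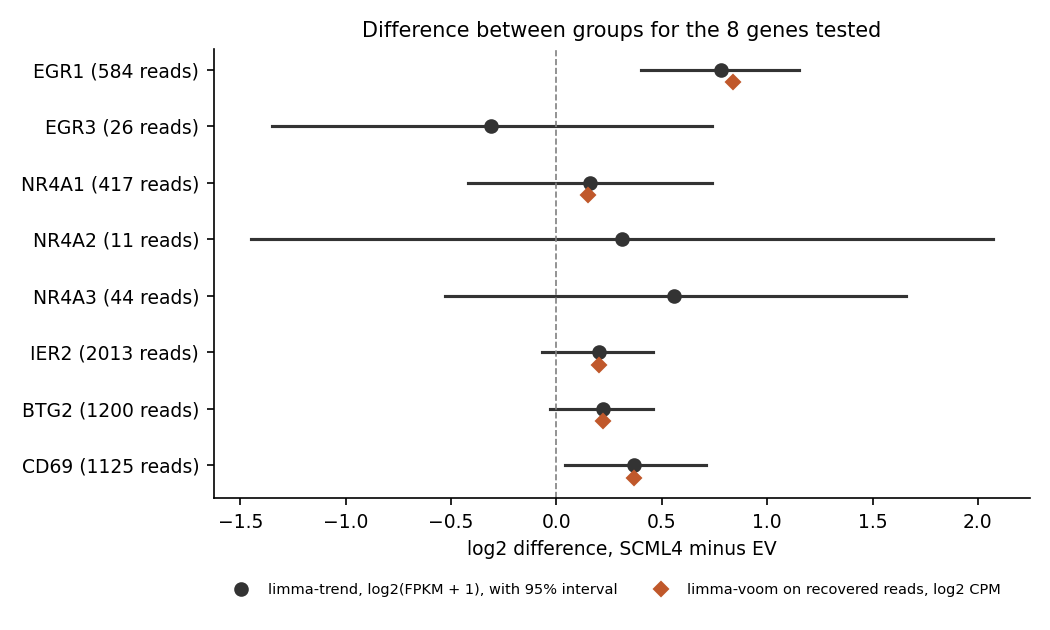
Log2 difference, SCML4 minus EV (horizontal axis), of the 8 genes tested; black points and lines are the limma-trend estimate on log2(FPKM + 1) with its 95% interval, and diamonds the limma-voom estimate on recovered reads for the 5 genes with enough reads. The intervals of EGR1 (0.40 to 1.15) and CD69 (0.04 to 0.71) lie above 0 and those of the other 6 include it, before adjustment for the number of genes.

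EGR1, the best known factor of the EGR family and a transcriptional activator that also induces its own corepressor NAB2, had 74, 71 and 62 reads in EV replicates 1 to 3, or 7.68, 7.92 and 6.40 CPM. The SCML4 replicates had 104, 124 and 149 reads, or 11.5, 12.0 and 16.6 CPM. Every SCML4 library lay above every EV library, and SCML4 replicate 3 was the highest. In bulk RNA more expressing cells and more RNA per cell cannot be told apart. The group means were 7.33 ± 0.814 and 13.4 ± 2.84 CPM (SD, n = 3 each), a ratio of 1.82. The difference was 0.78 on the log2(FPKM + 1) scale, with a 95% interval from 0.40 to 1.15 (SE 0.16). It ranked at 33 among 15357 genes by unadjusted p (0.00212), and its adjusted p in limma-trend was 0.905, so it was not called. The estimate in limma-voom was 0.84 with an adjusted p of 0.858, and over 27 alternatives, none of which called it, the adjusted p ranged from 0.13 to 0.989. Permuting the library labels exactly (two-sided, 3 against 3) gave p = 0.1, the smallest this design allows.

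Counting error alone gives an SD of about 0.884 CPM for EGR1 in an EV library and 1.20 in an SCML4 library. The observed SD in EV (0.814) lay at that level, and in SCML4 (2.84) above it, through replicate 3. Without SCML4 replicate 3 the ratio was 1.60 and without SCML4 replicate 1 it was 1.95, the lowest and highest of the 6 values with a library left out. Without EV replicate 1 it was 1.87. When the reads were corrected for GC content and exonic length, the difference was 0.70 on the log2(CPM + 1) scale (adjusted p = 0.648 in limma-trend).

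The other EGR genes were near the limit of detection. EGR2, a factor of T cell anergy and of peripheral myelination, had 2, 0 and 0 reads in the EV libraries and 2, 3 and 5 in those with SCML4. Its groups did not overlap in CPM (0.208, 0 and 0 against 0.221, 0.290 and 0.558), but EV replicate 1 and SCML4 replicate 1 had the same number of reads and differ only by library size. A count of 0 allows up to 0.335 CPM in EV replicate 2 and 0.310 in EV replicate 3 (3 reads), above the level of SCML4 replicates 1 and 2. The ratio of pooled reads was 4.99 with an exact 95% counting interval of 1.06 to 46.8, from 2 reads against 10. Both EV reads came from EV replicate 1, so without that library the EV mean was 0. EGR2 did not pass the filter on FPKM; with no filter limma-trend gave it an unadjusted p of 0.031 and an adjusted p of 0.903, and limma-voom an adjusted p of 0.868.

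EGR3, which shares its role in anergy with EGR2, had 3, 8 and 4 reads in the EV libraries against 7, 0 and 4 with SCML4. The groups overlapped, with the highest value in EV replicate 2 and the lowest in SCML4 replicate 2. The difference was -0.31 on the log2(FPKM + 1) scale (95% interval -1.35 to 0.74, adjusted p = 0.948 in limma-trend). It depended on single libraries: -0.48 without EV replicate 1, -0.05 without EV replicate 2, -0.65 without SCML4 replicate 1 and 0.14 without SCML4 replicate 2. It also depended on the scale, at -1.08 with a pseudocount of 0.1 and -1.01 in limma-voom without a filter, and with library weights it was -0.75. EGR4, a less studied member of the family, had 0, 5 and 1 EV reads against 1, 0 and 3 with SCML4, so that the 10 reads in all were spread over both groups; its pooled ratio of 0.665 had a counting interval of 0.138 to 2.80. The EGR4 ratio of mean CPM, 0.674, had no stable direction: it was 0.25 without SCML4 replicate 3, 0.449 without EV replicate 1, 1.01 without SCML4 replicate 2 and 2.87 without EV replicate 2, which held 5 of the 6 EV reads. EGR4 was also below the filter, and with no filter limma-trend gave an adjusted p of 0.96. EGR1 took 84.5% (Wilson 95% interval 75.3 to 90.7) to 97.6% (93.3 to 99.2) of the reads of the 4 EGR genes in a library, the lowest being EV replicate 2 and the highest SCML4 replicate 2.

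NR4A1, also known as Nur77 and widely used as a reporter of T cell receptor signal strength, had 57, 79 and 60 reads in EV (5.92, 8.81 and 6.20 CPM) and 80, 57 and 84 in SCML4 (8.83, 5.51 and 9.38 CPM). The groups overlapped: SCML4 replicate 2 was the lowest of all 6 libraries, and EV replicate 2 lay beside SCML4 replicate 1. The means were 6.97 ± 1.59 and 7.91 ± 2.09 CPM (SD, n = 3 each). The difference on the log2(FPKM + 1) scale was 0.16 with a 95% interval of -0.42 to 0.74 (adjusted p = 0.95 in limma-trend). This interval leaves room for a change of either sign. Each library left out moved the NR4A1 difference by more than 1.5 times: it was 0.06, 0.34 and 0.09 without EV replicates 1, 2 and 3, and 0.07, 0.40 and 0.02 without SCML4 replicates 1, 2 and 3. After the correction for GC content and exonic length it was 0.08 on the log2(CPM + 1) scale. With library weights the estimate turned to -0.09 in limma-trend and to -0.07 in limma-voom. The SD within each group was above the 0.864 and 0.923 CPM that counting error gives in EV and SCML4.

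NR4A3 and NR4A2, the other orphan receptors of the family, were sparse. NR4A3 had 4, 3 and 11 reads in the EV libraries against 7, 6 and 13 with SCML4, with the replicate numbered 3 the highest of each group and the groups overlapping. The difference was 0.56 on the log2(FPKM + 1) scale (95% interval -0.53 to 1.66, adjusted p = 0.918 in limma-trend). It ranged from 0.23 without SCML4 replicate 3 to 1.01 without EV replicate 3, and was 0.40 without EV replicate 1. NR4A2 had 0, 2 and 2 EV reads against 0, 5 and 2 with SCML4, and its difference of 0.31 had an interval of -1.45 to 2.07. Without EV replicate 1 the NR4A2 difference was -0.24, and without SCML4 replicate 2 it was -0.25. NR4A1 took between 82.2% (Wilson 95% interval 71.9 to 89.3) of the reads of the 3 NR4A genes, in EV replicate 3, and 94.0% (86.8 to 97.4), in EV replicate 2.

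CD69, the surface antigen, had 167, 155 and 164 reads in the EV libraries against 173, 217 and 249 with SCML4. In CPM the EV libraries stood at 17.3, 17.3 and 16.9 and the SCML4 libraries at 19.1, 21.0 and 27.8, so the groups did not overlap. SCML4 replicate 1 lay nearest to the EV libraries and replicate 3 stood highest, as for EGR1. The means were 17.2 ± 0.215 and 22.6 ± 4.59 CPM (SD, n = 3 each), a ratio of 1.32. The EV spread was below the 1.35 CPM that counting error alone gives in a library, and the SCML4 spread above its 1.55. The difference was 0.37 on the log2(FPKM + 1) scale (SE 0.14, 95% interval 0.04 to 0.71). Its unadjusted p in limma-trend was 0.0337 and its adjusted p 0.905. It fell to 0.22 without SCML4 replicate 3 and was 0.38 without EV replicate 1. The exact two-sided permutation test again gave its smallest possible p, 0.1.

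IER2, an immediate early protein of the nucleus, was the most abundant transcript and had a narrow range in the SCML4 libraries. It had 272, 338 and 328 reads in EV (28.2, 37.7 and 33.9 CPM) and 336, 393 and 346 in SCML4 (37.1, 38.0 and 38.6 CPM). The groups overlapped only through EV replicate 2, which lay between SCML4 replicates 1 and 2, and EV replicate 1 was the lowest of all. The means were 33.3 ± 4.75 and 37.9 ± 0.793 CPM (SD, n = 3 each), with a difference of 0.20 on the log2(FPKM + 1) scale (95% interval -0.07 to 0.46, adjusted p = 0.905 in limma-trend). Counting error alone gives an SD of about 1.88 CPM in an EV library and 2.01 in an SCML4 library. The SCML4 spread lay below that level, so its narrowness is not a trait of the cells that these data can show. The EV spread lay above it. Without EV replicate 1 the difference was 0.08 and the ratio of mean CPM 1.06 in place of 1.14. The transcript has a GC content of 61.7%, among these genes second to EGR4 at 66.0%, and its difference was 0.09 on the log2(CPM + 1) scale once GC content and exonic length had been corrected for; the part of GC content in this result was not tested further.

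BTG2, an antiproliferative protein that recruits the CCR4-NOT deadenylase to messenger RNA, had 176, 174 and 203 EV reads against 229, 238 and 180 with SCML4. This corresponds to 18.3, 19.4 and 21.0 CPM in EV and 25.3, 23.0 and 20.1 CPM in SCML4. SCML4 replicate 3, the highest library for EGR1 and CD69, was the lowest SCML4 library for BTG2, and it lay below EV replicate 3. The means were 19.5 ± 1.35 and 22.8 ± 2.59 CPM (SD, n = 3 each), with a difference of 0.22 on the log2(FPKM + 1) scale (95% interval -0.03 to 0.46, unadjusted p = 0.0722, adjusted p = 0.905 in limma-trend). Without SCML4 replicate 3 the difference was 0.30, without SCML4 replicate 1 it was 0.14, and without EV replicate 1 it was 0.17.

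**Figure D3:**
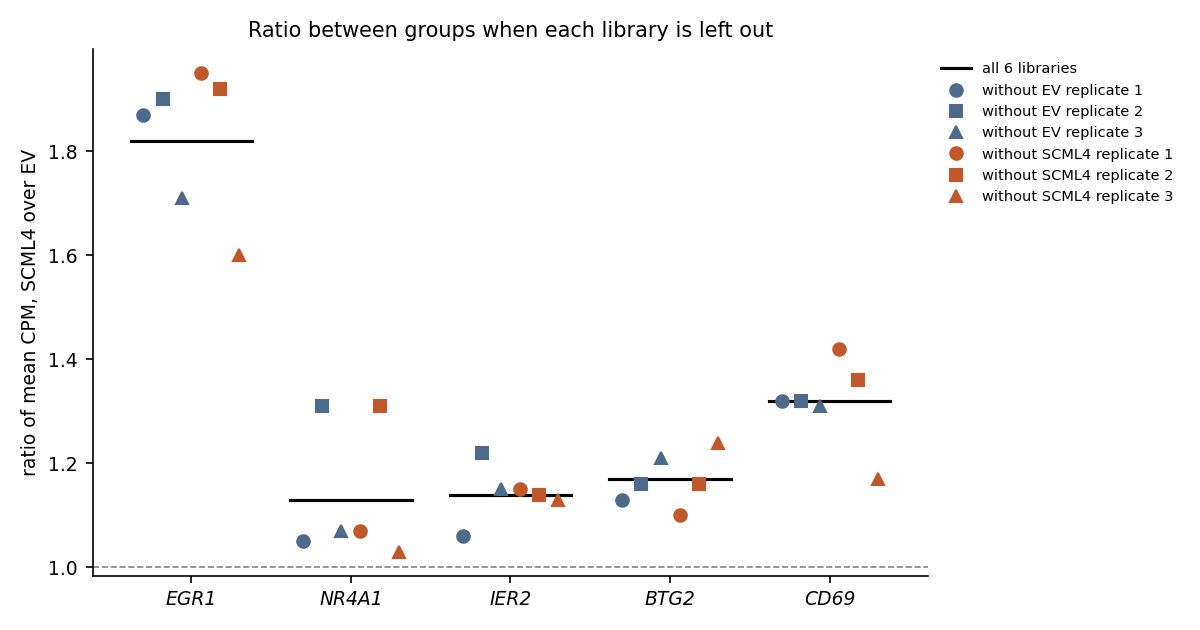
Ratio of mean CPM, SCML4 over EV (vertical axis, linear, not starting at 0), of the 5 well covered genes with all 6 libraries (black line) and with each library left out (points; blue, an EV library, and orange, an SCML4 library). EGR1 stays between 1.60 and 1.95 and NR4A1 between 1.03 and 1.31.

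Across the 6 libraries log2(CPM + 1) of EGR1 and CD69 had a Pearson correlation of 0.93, and the 9 other pairs of the 5 well covered genes lay between 0.09 (NR4A1 and BTG2) and 0.60 (EGR1 and IER2). These coefficients describe 6 points that share the split into groups and the depth of each library. Of 11406 other genes, each averaging at least 50 reads, 25 had a coefficient above 0.95 with EGR1 and 33 with CD69. Those most like EGR1 were ESPL1 (separase, 0.9916), SPC24 (a kinetochore subunit, 0.9879), GAB2 (a docking adaptor, 0.9833), PPIP5K1 (an inositol pyrophosphate kinase, 0.9801) and ATG13 (an autophagy initiation factor, 0.9762). Of these, GAB2 had the greatest difference, from a mean of 12.0 CPM in EV to 18.6 in SCML4 (adjusted p = 0.834 in limma-trend). Those most like CD69 were ZMYM3 (0.9957), the chondroitin sulfotransferase gene CHST11 (0.9871), the cadherin gene CDH24 (0.9868), the spectrin gene SPTAN1 (0.9853) and CSRP1-AS1 (0.9838), whose reads may belong to the gene on the other strand. Genes this alike over 6 libraries were picked from the 11406 and are named as a description.

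The regulators and partners of these factors showed no calls in limma-trend. Among 15 EGR cofactors and regulators, 0 were called, 6 differences were positive and 9 negative, with a median of -0.04 in log2. ELK1, a ternary complex factor of serum response factor, had 58.4 ± 4.80 CPM in EV against 67.4 ± 6.39 in SCML4 (SD, n = 3 each here and below). MRTFB, another cofactor of serum response factor, was at 119 ± 8.60 and 106 ± 4.25 CPM with SCML4 lower in all 3 libraries, and CREB1 at 135 ± 9.12 and 124 ± 2.62. Groups were apart in 1 of the 15, against 11.3% of all genes in either direction. Of 13 partners and regulators of NR4A factors 10 were tested, with 7 positive and 3 negative differences and a median of 0.08. The nuclear receptor coactivator NCOA1 stood at 49.8 ± 0.932 and 54.8 ± 3.24 CPM, and the calcineurin and MEF2 inhibitor CABIN1 at 141 ± 14.8 and 160 ± 6.97. The adjusted p in limma-trend of these 5 genes was 0.905.

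Other immediate early and delayed early genes had 22 positive and 4 negative differences among 26 tested, with 0 called and a median of 0.18 in log2, beside a median of 0.01 over all genes. The medians and sign counts of this and the other lists use all libraries. They were not recalculated without EV replicate 1 or after the correction for GC content. An unadjusted p under 0.05 was reached by 4 of 26, against 5.09% of all genes, and groups were apart in 6 of 26, with SCML4 higher in 5, against 11.3% of all genes in either direction. GADD45B, a stress sensor that activates p38 signalling, had 4.65 ± 0.527 CPM in EV against 6.03 ± 0.594 in SCML4. Its relative GADD45A stood at 8.08 ± 1.51 and 10.7 ± 1.15, and the zinc finger factor KLF6 at 36.3 ± 2.14 and 42.3 ± 2.36. These 3 had differences of 0.35, 0.39 and 0.22 on the log2(FPKM + 1) scale and the same adjusted p of 0.905 in limma-trend. The differences of the list ran from -0.25 for PHLDA1 to 0.92 for IER5L, a relative of IER2 with 6 to 37 reads per library, both named after their values were seen.

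**Figure D4:**
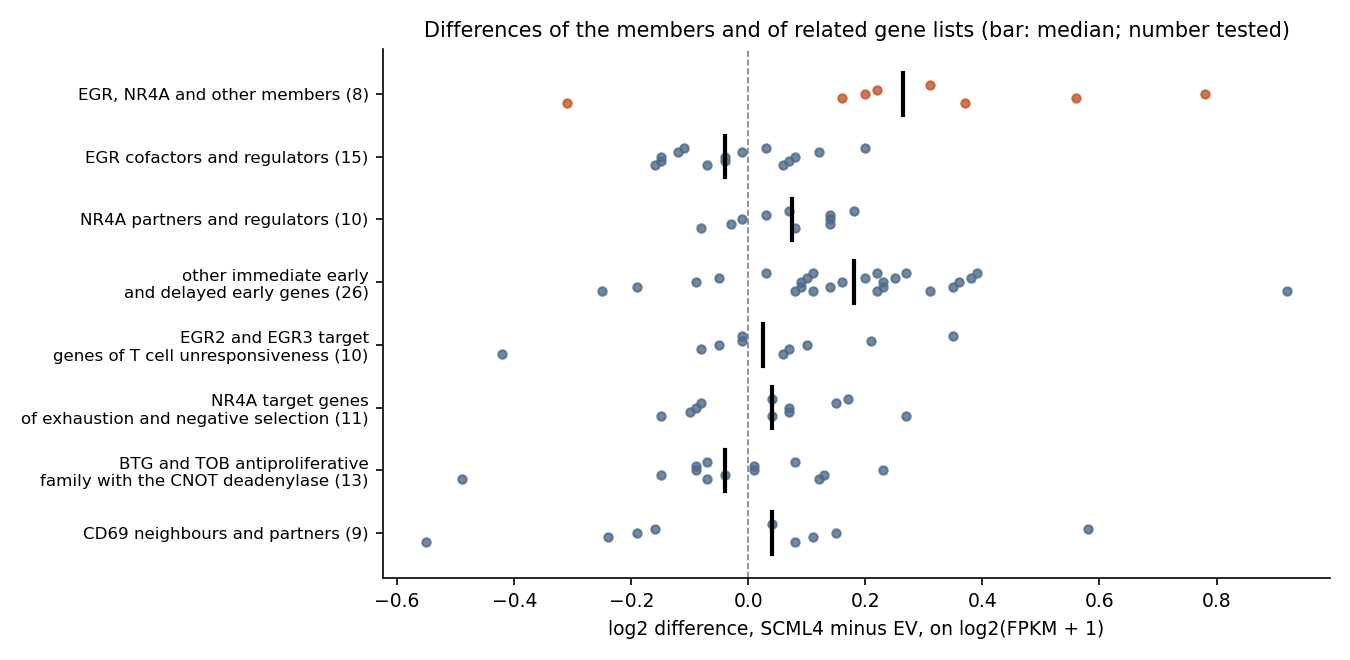
Log2 difference, SCML4 minus EV, on the log2(FPKM + 1) scale (horizontal axis) of each tested gene, 1 point a gene, in the set described here (orange) and in 7 related lists (blue); black bars are medians and the numbers in brackets give the genes tested. Medians are 0.26 for the genes described here and 0.18 for the other immediate early and delayed early genes, and between -0.04 and 0.08 in the other 6 lists.

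Known downstream genes gave 0 calls as well. Of 13 target genes of EGR2 and EGR3 in T cell unresponsiveness 10 were tested, 5 positive and 5 negative with a median of 0.03. The cell cycle inhibitor CDKN1B had 122 ± 9.91 CPM in EV against 141 ± 7.48 in SCML4 and groups apart. Groups were apart in 1 of the 10, against 11.3% of all genes in either direction. CDKN1A, of the same family, was at 1.78 ± 0.572 and 1.20 ± 0.124, and the diacylglycerol kinase DGKA at 74.2 ± 2.53 and 70.3 ± 6.18. Of 13 NR4A targets of exhaustion and negative selection 11 were tested, 7 positive and 4 negative with a median of 0.04. TOX, a nuclear factor of exhausted T cells, stood at 174 ± 26.3 and 196 ± 6.96 CPM, the cytokine signalling inhibitor CISH at 8.03 ± 1.19 and 7.06 ± 0.619, and the survival gene BCL2 at 55.7 ± 9.73 and 61.5 ± 5.11. The adjusted p of these 6 genes in limma-trend lay between 0.905 and 0.926.

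The relatives of BTG2 and the neighbours and partners of CD69 divided evenly. In the BTG and TOB family with the CNOT deadenylase 13 genes were tested, 6 positive and 7 negative, with a median of -0.04. The deadenylase subunit CNOT3 had 61.6 ± 5.95 CPM in EV against 72.6 ± 9.78 in SCML4. The poly(A) binding protein PABPC1 was at 790 ± 42.0 and 857 ± 25.6, and the nuclease CNOT6 at 194 ± 17.1 and 174 ± 14.9, where limma-trend gave each an adjusted p of 0.905. Of 11 neighbours and partners of CD69, 9 were tested, 5 positive and 4 negative with a median of 0.04. Groups were apart in 2 of the 9, against 11.3% of all genes in either direction. LGALS1, a galectin described as a CD69 ligand, stood at 2.87 ± 0.417 and 4.37 ± 0.676 CPM with the groups apart, a difference of 0.58 on the log2(FPKM + 1) scale (unadjusted p = 0.00723, adjusted p = 0.905 in limma-trend, 23 to 45 reads per library). S1PR1, the receptor that CD69 removes from the surface, stood at 42.4 ± 10.1 and 34.8 ± 4.02 CPM, and CLEC2D, a lectin gene related to CD69, at 12.6 ± 1.99 and 14.0 ± 0.965, with groups that overlapped in both.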

How the data were processed

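RNA-seq libraries of stimulated Jurkat cells, 3 EV and 3 SCML4, were compared. Groups and replicate numbers come from the sample titles. FastQC, STAR, SAMtools and hg19 are named without versions, per the submitters' processing notes; the sources used here do not give the counting tool, strand setting, annotation or gene lengths. Per the file headers the deposited values are FPKM, in a column for each library, for 39012 gene symbols. Whole reads and library totals were worked out from the FPKM steps: all 23897 genes above 0 (100.0%) gave whole reads within 0.01 of a read. A divisor shared by all reads of a gene can be missed. The recovery was tested on simulated data. CPM are reads per 1000000 of the library total. Floors, shares and pooled ratios cover counting error only.

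The comparison was limma-trend (limma 3.58.1, R 4.3.3) on log2(FPKM + 1) where the mean FPKM was at least 0.5, two-sided, with Benjamini-Hochberg adjustment over all genes tested and a threshold of 0.05. Its pseudocount, filter and trend depend on the lengths behind the FPKM. Alternatives were other pseudocounts, filters and scalings, fits of recovered reads (mean at least 10 per gene) by limma-voom and limma-trend, a lowess correction (span 0.3) for GC content and exonic length, known from GENCODE 29 for 94.3% of those genes, library weights, a replicate block and leaving out each library. The fits were also run on simulated counts, with changes set in well covered genes and the same spread in all libraries. That setting holds neither a library that stands apart, as EV replicate 1 did, nor changes in genes with few reads. It does not show how the fits treat these. All 10 members are named, and from each related list up to 3 genes by lowest unadjusted p (some that this names are not reported here); the 5 genes most like EGR1 and CD69 were picked by Pearson correlation. IER5L and PHLDA1 were named after their values were seen, and the values of NAB2 were added in the same way. Members and lists were chosen with earlier results of these data known. Promoter windows are from RefSeq (GRCh38.p14), without those on the chromosome that carries EGR3. GENCODE was not used for coordinates.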

Additional observations from a re-analysis of the deposited data

How the results depend on the processing

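The number of members called was 0 under all 27 alternatives, and 3 members (EGR1, CD69 and EGR2) had groups apart under both other scalings. In the main scaling 2 of the 8 tested members, EGR1 and CD69, had groups apart, against 11.3% of all genes tested. EGR2 is outside that share, and its nearest libraries of the 2 groups had the same number of reads, 2 each. The positive differences of EGR1 (0.62 to 0.94 in log2), CD69 (0.22 to 0.49), BTG2 (0.14 to 0.30) and IER2 (0.08 to 0.29) kept their sign in all 27, and that of NR4A3 (0.23 to 1.01) in 17. Among the 8 genes with log2 differences, signs turned in 3: NR4A1 to -0.09 in limma-trend and -0.07 in limma-voom with library weights, NR4A2 to -0.24 without EV replicate 1 and -0.25 without SCML4 replicate 2, and EGR3, between -1.08 (pseudocount 0.1) and 0.14 over 16 alternatives and -0.65 and 0.14 with a library left out, to 0.14 without SCML4 replicate 2; the cause was not tested. NR4A1 lay between 0.02 and 0.40 with a library left out. EGR2 and EGR4 were below the filter; with a library left out the EGR4 ratio of mean CPM ran from 0.25 to 2.87. The labels give no meaning to the replicate numbers, and same-numbered libraries did not deviate together (correlations of their deviations from the group means -0.0187, -0.0469 and -0.00999). With the replicate block 0 members were called, with 3 at an unadjusted p under 0.05 in place of 2, and EGR1 kept 0.78 (adjusted p = 0.982 in limma-trend). Over all genes the alternatives called between 0 and 14, none a member. Depth limits EGR2, EGR3, EGR4, NR4A2 and NR4A3, with at most 13 reads in a library.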
